A study of Mus musculus with 4 samples.

Results

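Oxidative phosphorylation genes were examined in mesenchymal stem cells (MSCs) sorted from the long bones of healthy mice and of mice with a leukemia of the B lineage, B cell acute lymphoblastic leukemia (here B-ALL). The genes were chosen by symbol: those of NADH dehydrogenase (Nduf with a, b, c, s or v), succinate dehydrogenase (Sdha to Sdhd), the cytochrome bc1 complex (Uqcr), cytochrome c oxidase (Cox4 to Cox8) and ATP synthase (Atp5). Of 17457 genes in the table, 95 matched, and 90 of these had an FPKM of 1 or more in 2 or more of the 4 libraries. FPKM are fragments counted for a transcript, divided by its length and by the size of the library, so that levels can be set side by side between genes. By this condition 11056 genes of the whole table were tested.

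All mice were female C57BL/6J, aged 7 to 9 weeks at injection. The leukemia group received 1000 PER-M60 cells, a B-ALL line that carries BCR-ABL1 on a retrovirus with an mCherry reporter, through the tail vein, and the mice were killed when symptoms set in. The control group received an injection of phosphate-buffered saline. Each group gave 2 libraries, and each library came from 4 to 7 pooled mice. A p-value here rests on 2 pools a group, and the fit draws each gene's spread between pools toward that of all genes of like level. The marrow was flushed out and discarded, the bones were digested, and viable CD45- TER119- CD31- Sca-1+ PDGFRa+ cells were sorted without culture. Leukemia-associated MSCs (L-MSCs) thus came from mice bearing 1 leukemia line, taken at the onset of symptoms in the study's methods and at a high leukemia burden in the labels.

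The genes of the sort antigens were present in all 4 libraries. Ly6a, which encodes Sca-1, had FPKM of 1056 and 1711 in control MSCs and 1702 and 1985 in L-MSCs, and Pdgfra had 66.8 and 72.7 in control MSCs and 87.1 and 93.0 in L-MSCs. Ptprc (CD45) and Pecam1 (CD31) did not reach the FPKM condition. Genes above 0 numbered 13623 to 14704 a library. FPKM do not hold the reads of a single library, for which the study gives a range over all samples, and no counting interval was given.

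Oxidative phosphorylation takes place in the inner mitochondrial membrane. Complex I takes electrons from NADH and complex II takes them from succinate, both hand them to ubiquinone, and complexes III and IV pass them through cytochrome c to oxygen. The protons pumped by complexes I, III and IV flow back through complex V, which makes ATP. Most subunits are encoded in the nucleus, and a small set is encoded by mitochondrial DNA. The 26 mitochondrially encoded symbols looked for had 0 rows in the table and were not analysed here. MSCs in culture are known to draw much of their ATP from glycolysis and to increase oxidative phosphorylation as they differentiate.

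The 90 genes comprised 80 subunits, 8 assembly factors of complex I (the Ndufaf genes, which are matched by symbol but are not part of the finished complex) and 2 others, Ndufa4l2 and Cox7a2l. The subunits were 38 of complex I, 4 of complex II, 8 of complex III, 13 of complex IV and 17 of complex V. Ndufa4 was counted with complex IV, where the protein resides despite its name. These were abundant transcripts, with a median FPKM of 118 against 8.67 over all genes tested, and 89 of the 90 were at an FPKM of at least 1 in every library. The 5 symbols that failed the condition were complex IV isoforms known from muscle, brown fat or testis. Cox6a2, Cox7b2 and Cox8c were listed at 0 in every library, while Cox7a1 and Cox8b did not exceed an FPKM of 1.0 in any.

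Transcripts of oxidative phosphorylation genes were lower in L-MSCs than in control MSCs as a broad, shallow shift, and few single genes passed the test. After scaling of the libraries, 4 of the 90 genes (4.44%) fell at an adjusted p of 0.05 or less (limma, Benjamini-Hochberg over all 11056 genes), beside 3.23% of all genes tested. None of the 90 rose at that threshold, beside 2.58% of all genes, and none had a positive change at an unadjusted p of 0.05 or less, beside 9.54%. When a log2 fold change of 1 or more in size was asked for as well, 3 fell and 0 rose, beside 2.65% and 2.43% of all genes. The count of calls was thus near the background. Scaling set part of that background: of all genes called, 55.6% were lower in L-MSCs, against 41.0% without scaling and 43.8% on the TPM scale.

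The direction departed further from the background. The log2 fold change was negative for 82 of the 90 genes (91.1%), beside 50.7% of all genes tested, and the median was -0.40 against -0.01 over all genes. In 59 of the 90 (65.6%) both L-MSC libraries lay below both control libraries after scaling, beside 27.2% of all genes, and in 2 both lay above, beside 24.8%. On the FPKM as deposited, the same counts were 53 below and 4 above, beside 21.7% and 30.8% of all genes. At an unadjusted p of 0.05 or less, 34 of the 90 (37.8%) were lower, beside 11.6% of all genes. The 90 genes share libraries and are not independent of each other, and in bulk samples fewer cells of a type and less RNA per cell cannot be told apart.

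**Figure D1:**
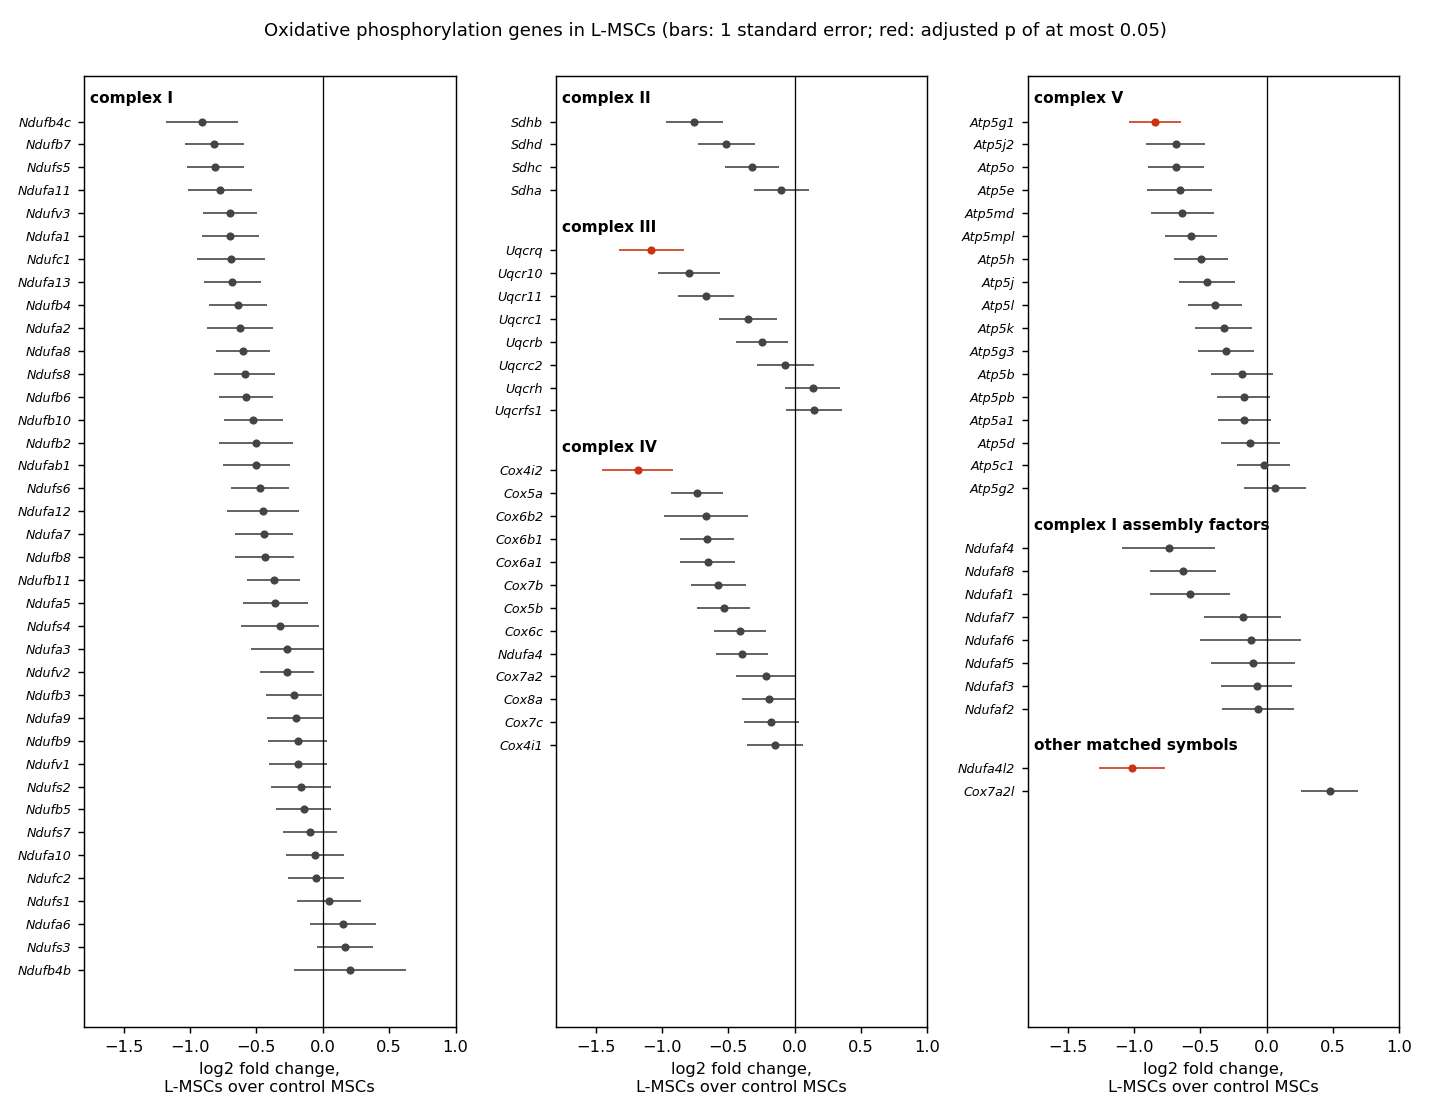
Log2 fold change (L-MSCs over control MSCs, on log2(FPKM + 1)) of each of the 90 genes, grouped by complex, with 1 standard error of limma as a bar and the 4 genes at an adjusted p of 0.05 or less in red. Points to the left of 0 were lower in L-MSCs; 82 of 90 lie there, and the range runs from -1.18 for Cox4i2 to 0.47 for Cox7a2l.

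The 4 genes that fell were Cox4i2, Uqcrq, Atp5g1 and Ndufa4l2. Cox4i2 encodes the alternative form of subunit 4 of complex IV, known for its place in the response to low oxygen. Its FPKM was 57.8 and 37.1 in control MSCs and 19.0 and 23.9 in L-MSCs (log2 fold change -1.18, SE 0.27, adjusted p = 0.0337). Ndufa4l2, a paralog of Ndufa4 known as a target of hypoxia-inducible factor that dampens complex I activity, was the most abundant of the 4. Its FPKM was 577 and 403 in control MSCs and 221 and 296 in L-MSCs (log2 fold change -1.01, SE 0.25, adjusted p = 0.0427). In both genes the 2 control pools differed from each other by more than the 2 L-MSC pools did, and no L-MSC value reached the lower control value. Other genes known for a response to low oxygen were mixed, and the mix depends on which genes are named. Ldha and Pgk1 were among the 5 of 21 glycolysis genes that fell, with Slc16a3, Eno1 and Pfkp. None of the 21 rose. Hif1a was lower without overlap (-0.58, adjusted p = 0.187). Vegfa (0.02), Slc2a1 (0.03), Pdk1 (-0.19), Hilpda (0.29) and Higd1a (0.32) overlapped between the groups. Vegfa was at a low level, with FPKM of 0.63 to 1.51. A part of low oxygen in the fall of Cox4i2 and Ndufa4l2 was not tested.

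Uqcrq, a small subunit of complex III, had FPKM of 60.0 and 42.4 in control MSCs and 23.2 and 27.1 in L-MSCs (log2 fold change -1.08, SE 0.25, adjusted p = 0.0338). Atp5g1 encodes the c subunit of complex V, which forms the rotating ring in the membrane. Its FPKM was 251 and 244 in control MSCs and 146 and 151 in L-MSCs (log2 fold change -0.84, SE 0.20, adjusted p = 0.0369), the closest agreement within groups of the 4. All 4 calls were lost when control replicate 1 or L-MSC replicate 1 was left out, and without scaling, on the TPM scale, without the FPKM condition and without the variance trend. The log2 fold change stayed negative for each of the 4 in all 15 alternatives, at -0.66 or lower, and the highest adjusted p over these was 0.209 for Cox4i2, 0.192 for Uqcrq, 0.167 for Atp5g1 and 0.228 for Ndufa4l2.

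**Figure D2:**
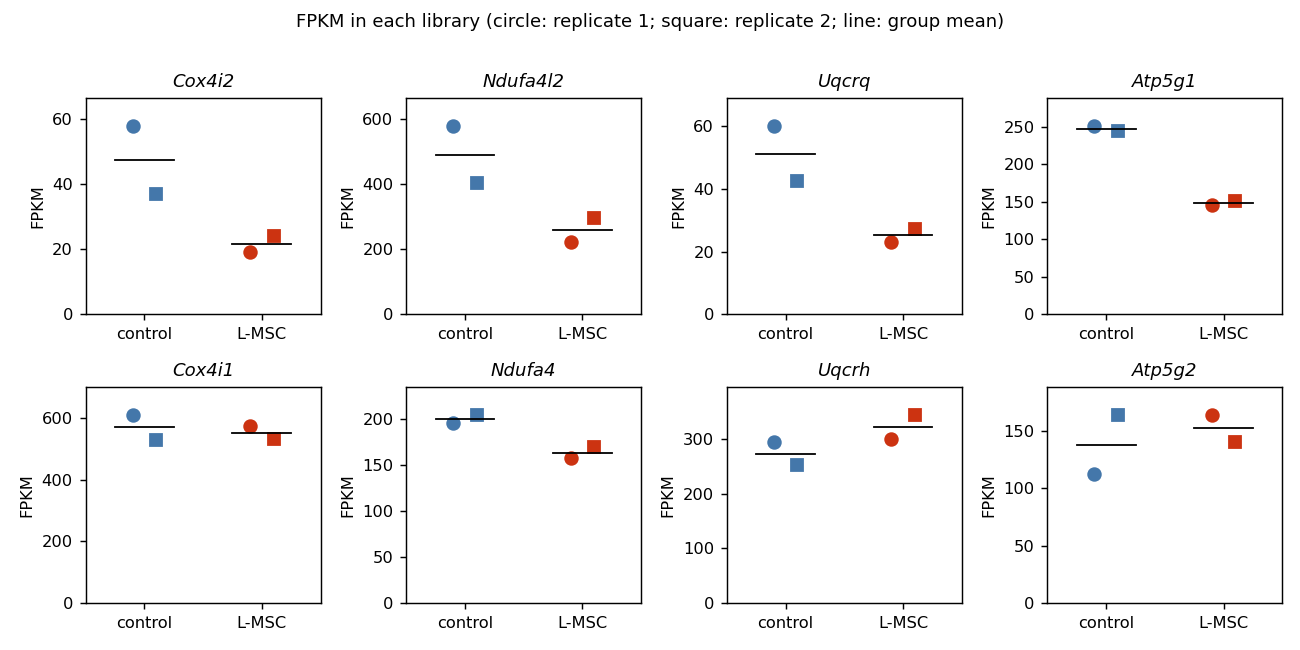
FPKM as deposited in each of the 4 libraries for the 4 genes that fell (top row) and for a relative of each in the same complex or gene pair (bottom row), with circles for replicate 1, squares for replicate 2 and a line for the group mean. In the top row both L-MSC points lie below both control points, as they also do for Ndufa4; in Cox4i1, Uqcrh and Atp5g2 the L-MSC points are not below both controls.

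Promoters are shown because regulators that bind near the start sites, among them NRF1, GABPA of the ETS family and YY1, are known to act on many oxidative phosphorylation genes together, and because Cox4i2 and Ndufa4l2 are known for their response to low oxygen. RefSeq promoters (GRCm38.p6, 250 bases before to 50 after the start) were matched for 74 of the 90 genes. Uqcrq, Cox4i2 and Ndufa4l2 were among the 16 without one. The 4 that follow belong to the matched genes with the smallest p: Atp5g1 at chr11:96075582-96075881 (minus strand), Ndufs5 at chr4:123718137-123718436 (minus strand), Cox5a at chr9:57520982-57521281 (plus strand) and Ndufb7 at chr8:83566508-83566807 (plus strand). The start site in the Cox5a window lies 3904 bases inside the gene as RefSeq bounds it, and 47 bases from the nearest start of a protein-coding transcript in GENCODE vM21. Capitals mark the letters searched on both strands: ACGTG, the core of the hypoxia response element, in Atp5g1 and Cox5a, GCGCA and GCGC with 1 base of any kind between them, for NRF1, in Ndufs5, and CCGGAAG for ETS factors in Ndufb7.
Atp5g1: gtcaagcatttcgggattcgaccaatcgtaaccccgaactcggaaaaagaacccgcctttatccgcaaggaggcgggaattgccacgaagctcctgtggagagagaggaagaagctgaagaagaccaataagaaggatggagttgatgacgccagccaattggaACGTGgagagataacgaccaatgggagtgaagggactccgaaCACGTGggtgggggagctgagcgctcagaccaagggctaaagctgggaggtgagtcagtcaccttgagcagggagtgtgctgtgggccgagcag
Ndufs5: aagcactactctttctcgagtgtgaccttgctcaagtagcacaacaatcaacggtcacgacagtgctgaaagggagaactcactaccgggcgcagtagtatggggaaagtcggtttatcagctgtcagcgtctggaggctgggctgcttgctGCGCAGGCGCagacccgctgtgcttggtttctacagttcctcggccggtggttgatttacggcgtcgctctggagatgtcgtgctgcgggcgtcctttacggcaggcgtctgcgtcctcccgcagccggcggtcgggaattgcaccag
Cox5a: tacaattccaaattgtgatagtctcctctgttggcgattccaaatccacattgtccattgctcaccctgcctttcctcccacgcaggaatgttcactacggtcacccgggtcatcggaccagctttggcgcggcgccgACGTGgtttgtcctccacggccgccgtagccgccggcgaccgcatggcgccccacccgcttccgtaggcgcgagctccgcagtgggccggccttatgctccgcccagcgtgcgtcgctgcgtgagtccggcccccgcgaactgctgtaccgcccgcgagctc
Ndufb7: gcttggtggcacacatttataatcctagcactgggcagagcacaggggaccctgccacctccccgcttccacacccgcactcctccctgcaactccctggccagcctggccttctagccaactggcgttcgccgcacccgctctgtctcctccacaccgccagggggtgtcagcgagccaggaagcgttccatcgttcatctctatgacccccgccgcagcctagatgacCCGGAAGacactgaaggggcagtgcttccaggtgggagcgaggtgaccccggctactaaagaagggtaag

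The Atp5g1 window held ACGTG at 2 places, and 1 of these lies in the palindrome CACGTG, which matches on both strands. Over the 74 promoters the NRF1 letters were found in 18 (24.3%), beside 4.82% of 27025 RefSeq promoters. The ETS letters were also found in 18 (24.3%, beside 9.14%), and AANATGGCG, for YY1, in 9 (12.2%, beside 2.5%). At least 1 of these motifs stood in 39 of the 74 (52.7%), beside 14.7% of all promoters. The 27025 promoters were not limited to genes expressed here, as the 74 were. Whether other expressed genes carry these motifs as often was not computed. ACGTG was found in 16 (21.6%), a share close to the 19.6% of all promoters.

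The median log2 fold change was -0.58 for the 18 genes with the ETS letters and -0.36 for the 56 without. For NRF1 it was -0.48 with and -0.42 without, for YY1 -0.37 with and -0.44 without, and for ACGTG -0.35 with and -0.45 without. Genes with and without a motif were thus lower in L-MSCs alike in sign, and the differences between these medians were not tested. A match to such letters is not evidence that a factor binds there.

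Complex I had the most subunits and no single call. Of its 38 subunits, 34 (89.5%) had a negative log2 fold change, and 24 (63.2%) did not overlap between the groups with L-MSCs lower. At an unadjusted p of 0.05 or less, 14 (36.8%) were lower. Over all genes tested these shares were 50.7%, 27.2% and 11.6%. The median was -0.44, with a range from -0.91 to 0.21. The 3 most abundant subunits, all accessory, were Ndufb10 (FPKM 319 and 240 in control MSCs, 217 and 196 in L-MSCs), Ndufb9 (221 and 272, then 259 and 206) and Ndufa2 (302 and 240, then 152 and 231). Groups did not overlap for Ndufb10 and Ndufa2, and they overlapped for Ndufb9.

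The complex I subunits nearest to the threshold, named after their values were seen, were Ndufs5 and Ndufb7, accessory subunits of the membrane arm. Ndufs5 had FPKM of 278 and 221 in control MSCs and 138 and 166 in L-MSCs (log2 fold change -0.81, adjusted p = 0.0607), and Ndufb7 had 252 and 187 in control MSCs and 126 and 138 in L-MSCs (-0.82, adjusted p = 0.0637). Both were lower in each L-MSC library and missed the threshold. Ndufv3, an accessory subunit of the NADH-binding part, had 268 and 221 in control MSCs and 155 and 167 in L-MSCs (-0.70, adjusted p = 0.0856). Ndufa11, of the membrane arm, was much less abundant and had 37.0 and 28.9 in control MSCs and 20.9 and 19.4 in L-MSCs (-0.77, adjusted p = 0.0962). Their groups did not overlap either. The lowest value in the complex, -0.91, belonged to Ndufb4c, a near copy of Ndufb4, and reads of Ndufb4, Ndufb4b and Ndufb4c may have been divided among them, so that their single values are uncertain.

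The shift was uneven within complex I. The 7 core subunits, which carry the flavin and iron-sulfur clusters and perform the electron transfer, had a median of -0.17. In 2 of them (28.6%) the groups did not overlap and L-MSCs were lower, near the 27.2% of all genes. For Ndufs8, a core iron-sulfur subunit, the FPKM was 157 and 114 in control MSCs and 101 and 89.5 in L-MSCs (log2 fold change -0.59, adjusted p = 0.178). Ndufs3 and Ndufs1, also core subunits, had values of 0.17 and 0.05. The 31 accessory subunits, which surround the core, had a median of -0.47 and 22 (71.0%) that did not overlap with L-MSCs lower. The difference between core and accessory subunits was not tested, and the accessory transcripts were also shorter, with a median of 704 bases against 1312.

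Complex II is both an enzyme of the citric acid cycle and an entry to the respiratory chain. Its 4 genes had negative log2 fold changes, with a median of -0.42. Sdhb, the iron-sulfur subunit, had FPKM of 194 and 157 in control MSCs and 117 and 104 in L-MSCs (-0.76, SE 0.21, adjusted p = 0.0732). Sdhd, a membrane anchor, had 104 and 99.6 in control MSCs and 66.2 and 87.3 in L-MSCs (-0.52, adjusted p = 0.202), and its partner Sdhc had 100.3 and 101 in control MSCs and 91.0 and 81.9 in L-MSCs (-0.32, adjusted p = 0.403). In these 3 genes both L-MSC libraries lay below both controls. Sdha, the flavoprotein that oxidises succinate, overlapped, with 83.5 and 101 in control MSCs and 94.6 and 89.5 in L-MSCs (-0.10, adjusted p = 0.827).

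In complex III, Uqcrq fell, and 5 of the 8 subunits (62.5%) were lower in L-MSCs without overlap, beside 27.2% of all genes. Uqcr11, another small subunit and the most abundant of the complex, had FPKM of 428 and 354 in control MSCs and 242 and 284 in L-MSCs (log2 fold change -0.67, adjusted p = 0.104). Uqcr10, a further small subunit, had 326 and 236 in control MSCs and 150.4 and 195 in L-MSCs (-0.80, adjusted p = 0.0857). Neither passed the test, and in both all L-MSC values lay under the control values. Uqcrb, a ubiquinone-binding subunit, had 240 and 249 in control MSCs and 213 and 230 in L-MSCs (-0.25, adjusted p = 0.526). Uqcrh, the hinge protein that docks cytochrome c, and Uqcrfs1, the Rieske iron-sulfur protein, had values of 0.14 each. For Uqcrfs1 the groups did not overlap and L-MSCs were the higher, with 50.6 and 51.7 in control MSCs and 65.4 and 56.4 in L-MSCs (adjusted p = 0.752). The median of the complex was -0.30.

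Complex IV had the lowest median of the 5 complexes, -0.54, although without control replicate 2 it stood at -0.45 and complex I at -0.58. All 13 of its subunits had a negative log2 fold change. In 10 of the 13 (76.9%) both L-MSC libraries lay below both controls, beside 27.2% of all genes. Cox6a1 and Cox6b1, with Cox4i1 the most abundant genes of the complex, were among them. Cox6a1 had FPKM of 694 and 653 in control MSCs and 435 and 483 in L-MSCs (-0.66, adjusted p = 0.101), and Cox6b1 had 632 and 596 in control MSCs and 389 and 447 in L-MSCs (-0.66, adjusted p = 0.100). Cox5a, a subunit of the matrix side, came nearest to the threshold of the complex IV genes that missed it, with 138 and 129.8 in control MSCs and 82.9 and 88.9 in L-MSCs (-0.74, adjusted p = 0.0630). The groups did not overlap in any of these. Cox4i1, the common form of subunit 4, overlapped between the groups, with 612 and 531 in control MSCs and 574 and 532 in L-MSCs (-0.15, adjusted p = 0.748). Cox8a had 436 and 449 in control MSCs and 415 in both L-MSC libraries (-0.19, adjusted p = 0.634).

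Several complex IV subunits exist as paralogs, so that their ratio within a library does not depend on the scaling. Cox4i2 was at 9.45% and 6.99% of the FPKM of Cox4i1 in control MSCs and at 3.31% and 4.5% in L-MSCs. Ndufa4l2 was at 296% and 197% of Ndufa4 in control MSCs and at 141% and 175% in L-MSCs, while Ndufa4 itself had FPKM of 195 and 204 in control MSCs and 157 and 169 in L-MSCs. Both ratios were lower in each L-MSC library than in each control library, by 1.07 and 0.62 on the log2 scale. Cox6b2, the testis form, stood at 0.798% to 1.49% of Cox6b1 with overlapping groups. Over these 3 pairs the exact two-sided permutation test gave p = 0.333, 0.333 and 1.0 (0.5, 0.5 and 1.0 after Benjamini-Hochberg adjustment), and 0.333 is the smallest p that 2 against 2 libraries can give.

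Cox7a2, the common form of subunit 7a, had FPKM of 70.5 and 58.7 in control MSCs and 52.4 and 66.7 in L-MSCs (-0.22, adjusted p = 0.631). Its relative Cox7a2l acts in joining complexes III and IV into supercomplexes, and C57BL/6 mice are known to carry a shortened form of the protein. Cox7a2l had the highest log2 fold change of the 90 genes, 0.47 (SE 0.22, adjusted p = 0.244), with FPKM of 158 and 122 in control MSCs and 199 and 217 in L-MSCs. It was 1 of the 2 genes, with Uqcrfs1, in which both L-MSC libraries lay above both controls.

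In complex V, 16 of the 17 subunits had a negative log2 fold change, with a median of -0.39. In 13 (76.5%) L-MSCs were lower without overlap, beside 27.2% of all genes. The 5 subunits of the catalytic F1 head had a median of -0.17, and Atp5b, the catalytic β subunit, had FPKM of 315 and 466 in control MSCs and 359 and 363 in L-MSCs (-0.19, adjusted p = 0.702). The 12 subunits of the membrane part and stalk had a median of -0.47, and 11 of them were lower without overlap. The difference was not tested, and the F1 transcripts were also longer, with a median of 1450.5 bases against 725. Atp5j (coupling factor 6) had 383 and 388 in control MSCs and 268 and 343 in L-MSCs (-0.45, adjusted p = 0.258), and Atp5h, a stalk subunit, had 281 and 330 in control MSCs and 232 and 231 in L-MSCs (-0.50, adjusted p = 0.193). Atp5o, which joins the stalk to the F1 head, had 219 and 175 in control MSCs and 136 and 125 in L-MSCs (-0.68, adjusted p = 0.100). In all 3 the L-MSC values lay below the control values. Atp5c1, the γ subunit of the rotor, had 184 and 173 in control MSCs and 173 and 206 in L-MSCs (-0.02, adjusted p = 0.962), and its groups overlapped.

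The c subunit of complex V is encoded by Atp5g1, Atp5g2 and Atp5g3, which give the same mature protein behind different targeting peptides. Atp5g2 had FPKM of 113 and 164 in control MSCs and 164 and 141 in L-MSCs (0.06, adjusted p = 0.912), and Atp5g3 had 61.2 and 72.3 in control MSCs and 59.5 and 55.6 in L-MSCs (-0.31, adjusted p = 0.447). Atp5g1 made up 59.0% and 50.9% of the summed FPKM of the c subunit genes in control MSCs and 39.4% and 43.4% in L-MSCs. The c subunit transcripts thus came mostly from Atp5g1 in both control libraries and in neither L-MSC library.

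Summed over the 80 subunits, the scaled FPKM was 14934 and 13665 in control MSCs and 10353 and 10995 in L-MSCs, or 74.6% of the control mean. The sums by complex were close to each other in this respect, at 73.6% for complex I, 72.4% for complex II, 77.3% for complex III, 74.2% for complex IV and 75.8% for complex V. No sum of a complex overlapped between the groups. Core subunits of complex I stood at 87.6% and accessory subunits at 71.4%, F1 subunits of complex V at 85.8% and the rest of complex V at 71.2%. The separation of the core and F1 sums came with the scaling. As deposited, the core sums overlapped, at 671 and 610 in control MSCs and 627 and 579 in L-MSCs. The F1 sums also overlapped, at 975 and 1141 in control MSCs and 945 and 1005 in L-MSCs. The 90 genes together held 2.65% and 2.49% of the summed FPKM of the control libraries and 1.88% and 2.12% of the L-MSC libraries. These sums are dominated by the abundant subunits and were not tested.

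**Figure D3:**
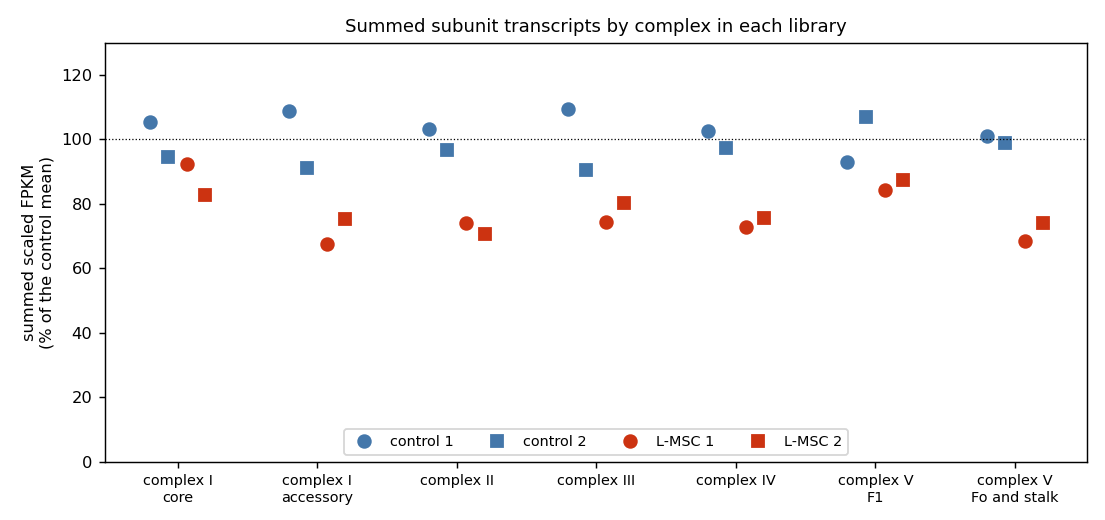
Summed scaled FPKM of the subunits of each complex in each library, as a percentage of the mean of the 2 control libraries (dotted line at 100), with complexes I and V divided into their catalytic and other parts. Both L-MSC points lie below both control points in every group, nearest to the controls for complex I core and complex V F1. On the FPKM as deposited, the sums of complex I core and of complex V F1 overlapped between the groups.

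The 8 assembly factors of complex I were at lower levels than the subunits, and none passed the test. Their log2 fold changes after scaling were all negative, from -0.74 to -0.06, with a median of -0.15. As deposited, the mean FPKM was higher in L-MSCs for Ndufaf2 (17.495 against 16.91), Ndufaf3 (12.35 against 12.16) and Ndufaf6 (7.705 against 7.415). Ndufaf8 had FPKM of 45.1 and 38.1 in control MSCs and 23.4 and 34.5 in L-MSCs (-0.63, adjusted p = 0.180). In 3 of the 8 (37.5%) both L-MSC libraries lay below both controls, beside 27.2% of all genes.

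The 2 libraries of a group were not alike for these genes. After scaling, 66 of the 90 were higher in control replicate 1 than in control replicate 2, beside 51.0% of all genes tested, and 52 of the 90 were lower in L-MSC replicate 1 than in L-MSC replicate 2, beside 48.9%. Without control replicate 1 the complex I median was -0.30, and without control replicate 2 it was -0.58. It stayed negative in both cases, as did the medians of the other 4 complexes and the values of 76 to 79 of the 90 genes when any 1 library was left out.

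Transcript length moved with the fold change. Of the 90 genes, 88 (97.8%) had a length in the annotation. The 54 of up to 1000 bases had a median log2 fold change of -0.50 and the 34 longer ones had -0.19, while the other genes tested had -0.18 for 697 short and 0.00 for 10146 longer ones. Across genes, Spearman's rho of log2 fold change with length was 0.29 over the 88 and 0.13 over 10843 other genes. Genes are not independent replicates, and this is a description. With the trend on length removed, the median of the 88 was -0.28, 73 of 88 were negative and 3 fell (3.29% of all genes fell in that fit). By the unadjusted threshold used above, 19 of the 88 were lower in that fit and 1 was higher. In the main fit 34 of the 90 were lower and 0 higher. Of all 10931 genes with a length, 1212 were lower and 1075 higher by that threshold with the trend removed. Cytosolic ribosomal protein genes, which are about as short (median 780 bases, against 809.5 for the 90), had a median of 0.36.

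**Figure D4:**
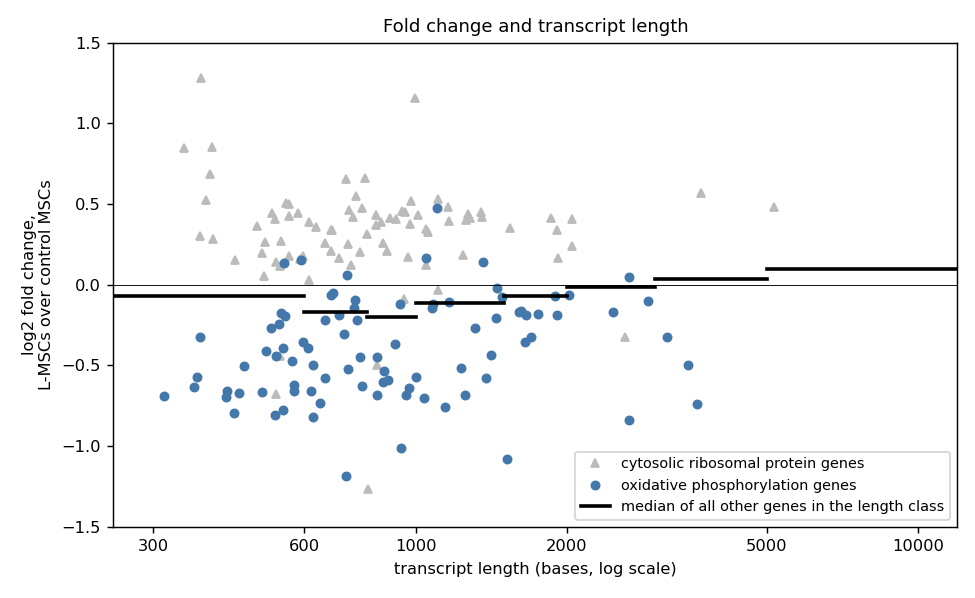
Log2 fold change (L-MSCs over control MSCs) against transcript length in bases on a log axis, for the oxidative phosphorylation genes with a length (circles) and cytosolic ribosomal protein genes (triangles), with the median of the other genes tested in each length class as a line. Most circles lie below the lines of their length class and most triangles lie above them.

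Genes that serve the same pathway were described from lists of their own. Among 35 assembly factors of complexes II to V, 1 fell and none rose, and the median was -0.06. The gene that fell was Uqcc2, an assembly factor of complex III, with FPKM of 348 and 308 in control MSCs and 123 and 135 in L-MSCs (log2 fold change -1.44, adjusted p = 0.0047). Its call held in 14 of 15 alternatives and was lost without the FPKM condition. Its shift was larger than that of any of the 90 genes, and its groups did not overlap.

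Of 24 electron carriers and carriers of ADP, ATP and phosphate, 1 rose and none fell, with a median of -0.23. Coq8a, a kinase-like protein needed to make coenzyme Q, had FPKM of 24.8 and 20.4 in control MSCs and 51.8 and 52.0 in L-MSCs (1.07, adjusted p = 0.0246), a call that was lost without control replicate 2 and without L-MSC replicate 1. Cycs, the cytochrome c that links complexes III and IV, had 42.8 and 32.1 in control MSCs and 25.1 and 18.6 in L-MSCs (-0.85, adjusted p = 0.093). Cyc1, a catalytic subunit of complex III whose symbol the choice of genes does not cover, had 65.1 and 81.1 in control MSCs and 79.5 and 78.0 in L-MSCs (0.01). Its groups overlapped.

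None of 21 genes of pyruvate dehydrogenase and the citric acid cycle passed the test, and the median was -0.26. At an unadjusted p of 0.05 or less, 5 (23.8%) were lower and 1 was higher, beside 11.6% and 9.54% of all genes. In 10 of the 21 (47.6%) both L-MSC libraries lay below both controls and in 4 both lay above, beside 27.2% and 24.8%. Of 21 glycolysis genes 5 (23.8%) fell, beside 3.23% of all genes, and none rose, with a median of -0.35. Slc16a3, a lactate exporter, had FPKM of 64.5 and 38.8 in control MSCs and 15.9 and 17.4 in L-MSCs (-1.63, adjusted p = 0.00999). Ldha, which makes lactate, had 750.0 and 771 in control MSCs and 364 and 406 in L-MSCs (-1.09, adjusted p = 0.0165), and Eno1, an enolase, had 876 and 650.4 in control MSCs and 368 and 334 in L-MSCs (-1.21, adjusted p = 0.0173). The count of 5 became 2 without control replicate 1 or L-MSC replicate 1 and 3 without either of the others. Pfkp and Pgk1 lost their calls in each of these cases, Ldha without L-MSC replicate 1 and Eno1 without control replicate 1. The glycolysis list was prompted in part by earlier results on these samples and is not independent evidence.

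Genes listed for mitochondrial biogenesis, which held regulators but also polymerases and proteases of mitochondria, had mostly positive log2 fold changes. None of 21 passed the test, and the median was 0.40. At an unadjusted p of 0.05 or less 4 were higher and none lower, beside 9.54% and 11.6% of all genes. The 4 were Ppargc1a, Tfb2m and the mitochondrial DNA polymerase genes Polg and Polg2. In 11 of the 21 both L-MSC libraries lay above both controls, beside 24.8% of all genes, and in 0 both lay below, beside 27.2%. Ppargc1a, the coactivator known for driving mitochondrial biogenesis, had FPKM of 0.08 and 0.30 in control MSCs and 2.19 and 1.18 in L-MSCs (1.12 on log2(FPKM + 1), adjusted p = 0.130), a low level in all 4 libraries. Nrf1, which binds the letters above, had 11.1 and 6.97 in control MSCs and 11.1 and 14.8 in L-MSCs (0.40, adjusted p = 0.502).

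The 78 mitochondrial ribosomal protein genes had a median of -0.24, and 1, Mrpl12, fell. That call was lost when any 1 library was left out. Of the 78 mitochondrial ribosomal protein genes, 40 (51.3%) had both L-MSC libraries below both controls, beside 27.2% of all genes. The 84 cytosolic ribosomal protein genes had a median of 0.36, with 1, Rps28, that rose and none that fell. Its call was lost without control replicate 1 and without either L-MSC replicate. Of 38 genes with proteasome symbols, Psmb8 and Psmb9 of the immunoproteasome rose and Psmd5, a chaperone of proteasome assembly, fell, with a median of -0.31. In 24 of the 38 (63.2%) both L-MSC libraries lay below both controls, and in 3 both lay above. This share lower was close to the 65.6% of the 90 oxidative phosphorylation genes, and it was 27.2% over all genes. The call of Psmd5 was lost when any 1 library was left out.

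**Figure D5:**
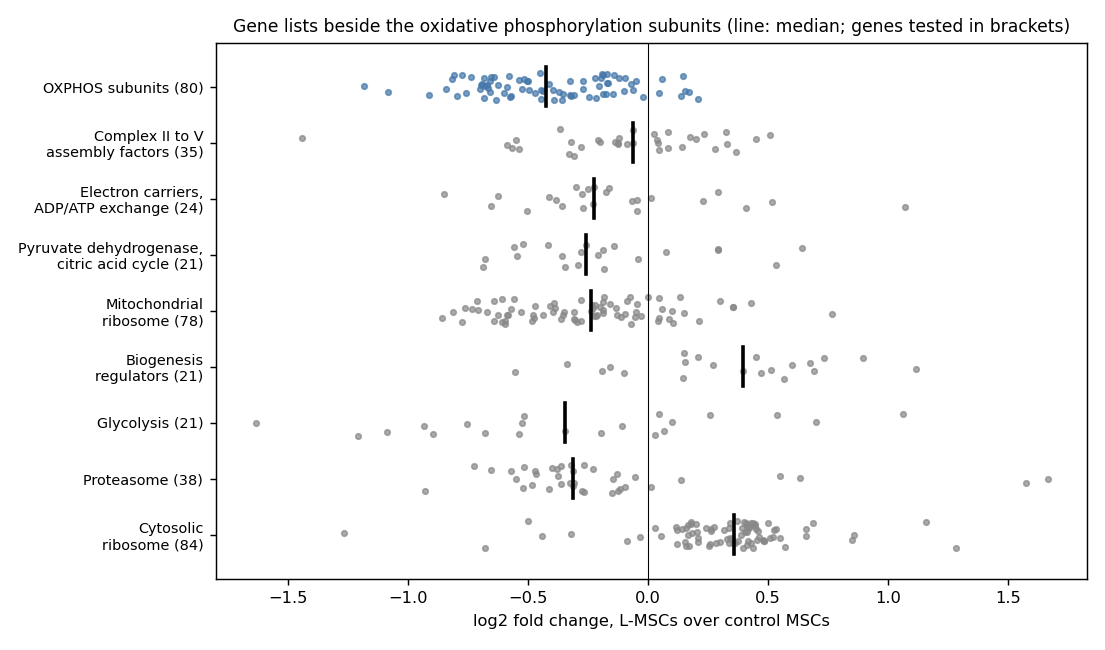
Log2 fold change (L-MSCs over control MSCs) of every tested gene of the 80 oxidative phosphorylation subunits and of 8 other lists, 1 point a gene, with a line at the median and the number of genes in brackets. Subunits centre below 0, as do glycolysis, the proteasome and the mitochondrial ribosome. The list labelled biogenesis regulators, which also holds polymerases and proteases, and the cytosolic ribosome centre above 0.

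Markers of other cell types also moved between the groups. Of 8 erythroid markers, 5 were tested and 4 fell, and the summed FPKM of the list was 240 and 151 in control MSCs and 12.1 and 6.45 in L-MSCs. Of 6 chondrocyte markers, 5 were tested and 1, Acan, fell (3 without control replicate 2 and 2 without L-MSC replicate 2), with sums of 273 and 108 in control MSCs and 71.0 and 65.3 in L-MSCs. Skeletal muscle, whose cells are rich in mitochondria, had 13 of 16 markers listed and 4 tested, with none passing the test, Myh1 at 0 in every library and sums of 14.7 and 5.87 in control MSCs and 5.24 and 6.54 in L-MSCs. The part of these cell types in the lower oxidative phosphorylation transcripts was not tested. Pericyte and smooth muscle markers, cells in which Cox4i2 and Ndufa4l2 are known to be high, had 6 of 8 tested and none past the test, with sums of 77.3 and 72.5 in control MSCs and 58.9 and 63.3 in L-MSCs. Rgs5, a defining pericyte gene, had FPKM of 21.4 and 10.1 in control MSCs and 16.6 and 12.6 in L-MSCs, with overlapping groups. Cspg4, also a pericyte gene, had 25.4 and 47.0 in control MSCs and 18.1 and 23.5 in L-MSCs (-0.82, adjusted p = 0.152), and Kcnj8 had 0.25 and 0.30 in control MSCs and 1.35 and 1.23 in L-MSCs (0.81, adjusted p = 0.230). Neither overlapped between the groups, and they lay in opposite directions. Their part in the fall of Cox4i2 and Ndufa4l2 was not tested.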

How the data were processed

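RNA was measured in 2 control and 2 L-MSC libraries made by the authors with SMART-Seq v4 and sequenced on a BGISEQ-500. According to the submitters' processing notes, reads were filtered with SOAPnuke and processed with HISAT2 2.0.4, Bowtie2 2.2.5 and RSEM 1.2.8 on GRCm38.p6. The deposited values are FPKM with 2 decimals, made by the authors and not scaled between libraries. A column of the authors' log2 fold changes was not used. Because FPKM divides by length and depth, short transcripts and a few abundant genes can shift all values, and the read number of each library, which counting error would need, is not in the table. The study states a range of clean reads over all samples, which does not say how many stand behind a gene's value.

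Each library was divided by its median of ratios over genes above 0 in all 4 libraries (factors 0.957 to 1.05). Genes with an FPKM of 1 or more in 2 or more libraries entered a limma 3.58.1 fit (R 4.3.3) of log2(FPKM + 1) on group, by lmFit and eBayes with trend, and p-values were adjusted over all 11056 genes by Benjamini-Hochberg. A log2 fold change on this scale understates changes of low genes. FPKM printed in the text are as deposited. Statements on overlap and sums by complex use the scaled values, and ratios of paralogs were compared by an exact permutation test. Complexes were assigned by hand from general knowledge. The computation was checked on simulated data.

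The genes, lists and tests were chosen with earlier results of these data known. The rule for named genes was, per complex, up to 6 with the smallest p at an adjusted p of 0.05 or less and the 3 most abundant others, all Sdh genes, paralog pairs and c subunit genes, and of each list up to 3 called and 2 abundant genes. Genes named outside it (Ndufs5, Ndufb7, Ndufv3, Ndufa11, Ndufb4c, Ndufs8, Ndufs3, Ndufs1, Uqcrfs1, Uqcr10, Cox5a, Atp5o, Atp5c1, Ndufaf8, Cycs, Cyc1, Pgk1, Pfkp, Hif1a, Vegfa, Slc2a1, Pdk1, Hilpda, Ppargc1a, Tfb2m, Polg, Polg2, Nrf1, Rgs5, Cspg4, Kcnj8, Lyz2, S100a8, Fosb, Myc, Zfp36) were chosen after their values were seen. Promoters and motifs came from RefSeq (GRCm38.p6), with 1 promoter a gene.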

Additional observations from a re-analysis of the deposited data

How the results depend on the processing

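With only 2 pools a group the calls depended on the settings. The 5 complex medians stayed negative in all 15 alternatives and the sums of the complexes in the 5 run for them (no scaling and each library left out), and 70 to 82 of the 90 genes had a negative log2 fold change. Against 4 genes that fell, 0 fell without scaling, on the TPM scale, without the FPKM condition and without the variance trend (25, 29, 32 and 22 at an unadjusted p of at most 0.05), 1 fell after quantile normalization (2.38% of all genes fell), 7 in the robust fit (3.62%) and 8 at a minimum FPKM of 5 (5.54%). Of all 11056 genes, 948 were lower at an unadjusted p of at most 0.05 without scaling, 1051 on the TPM scale and 1084 without the variance trend. Without the FPKM condition 1292 of 15785 were. Over all genes in the main fit, 357 fell and 285 rose. Without scaling 218 fell, on the TPM scale 196 fell, and without the variance trend 128 fell and 148 rose. Without the FPKM condition 0 fell and 0 rose in limma (1292 and 1063 at an unadjusted p of at most 0.05). Leaving out 1 library gave 163 to 536 genes that fell, 216 to 447 that rose and 0 to 6 of the 90 that fell, with 0 without control replicate 1 or L-MSC replicate 1 (16 and 15 at an unadjusted p of at most 0.05). Medians without scaling were -0.34 (complex I), -0.32 (II), -0.43 (IV), -0.29 (V) and -0.30 (all 90 genes). On the TPM scale they were -0.36 (II) and -0.33 (V). After quantile normalization they were -0.26 (I), -0.25 (II), -0.098 (III), -0.37 (IV), -0.21 (V) and -0.23 (all). With the trend on length removed they were -0.28 (I), -0.39 (IV), -0.19 (V) and -0.28 (all). The log2 ratio of summed FPKM without scaling was -0.36 (II), -0.33 (IV) and -0.30 (V). With 1 library left out, the medians ranged from -0.58 to -0.30 for complex I and from -0.47 to -0.34 for complex V. The cause of these changes was not tested. The replicate numbers were treated as names only, because the labels do not say that same-numbered pools share a day or batch. The deviations of replicate 1 from replicate 2 correlated at 0.101 between the groups over all genes. That value cannot settle whether same-numbered pools were paired. With the replicate number as a block, 22 of the 90 and 776 genes in all fell and 695 rose. The reads of each library are not in the table, and the precision of low genes was not computed.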

Other observations

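Of 11 assembly factors of complex I whose symbols do not begin as those above, none passed the test. At an unadjusted p of at most 0.05, 1 was lower and none higher, beside 11.6% and 9.54% of all genes. Their median log2 fold change was -0.03, or 0.16 without control replicate 1. Of 26 genes of mitochondrial protein import none passed, with a median of -0.20. At an unadjusted p of at most 0.05, 4 of the 26 were lower and 1 was higher, beside 11.6% and 9.54% of all genes. In 14 (53.8%) both L-MSC libraries lay below both controls, beside 27.2% of all genes. Immediate-early genes, which are induced rapidly by stress and growth factors, were mostly higher: 6 of 20 rose, beside 2.58% of all genes, and none fell. Their median was 1.23, with summed FPKM of 4960 and 2128 in control MSCs and 10832 and 6913 in L-MSCs. Without control replicate 2 the count was 1 and without L-MSC replicate 1 it was 2, with Fosb, Jun, Myc, Socs3 and Zfp36 losing their calls in both cases, and without control replicate 1 or L-MSC replicate 2 it was 13 or 11. This list was prompted in part by earlier results on these samples and is not independent evidence. The library with the highest immediate-early sum, L-MSC replicate 1, was also the one with the lowest sum over the 80 oxidative phosphorylation subunits. Between the controls the order was the other way. Control replicate 1 had the higher immediate-early sum and also the higher subunit sum (14934 against 13665 after scaling). Whether the values are related was not tested.

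Of 7 osteoblast markers 6 were tested and 1, Bglap2, fell, a call lost without control replicate 1, with summed FPKM of 5195 and 3117 in control MSCs and 4421 and 4944 in L-MSCs. Of 16 hematopoietic and B lineage markers 6 were tested and 1, Ebf1, rose, with Rag1 at 0 in every library. The Ebf1 call was lost without control replicate 2 and without either L-MSC replicate. Lyz2, with FPKM of 11.8 and 18.1 in control MSCs and 7.87 and 5.72 in L-MSCs (-1.11, adjusted p = 0.0655), and S100a8, with 3.58 and 4.58 in control MSCs and 2.25 and 1.36 in L-MSCs (-0.94, adjusted p = 0.151), were lower in L-MSCs without overlap and did not pass the test. Of 7 white adipocyte markers 3 were tested and 1, Fabp4, rose, a call lost without control replicate 2 and without L-MSC replicate 1, and of 6 brown adipocyte markers 1 was tested, which did not pass, with Elovl3 at 0. Of 8 endothelial markers 1 was tested and did not pass, with Cldn5 at 0. Gapdh, often used as a reference gene, had FPKM of 584 and 903 in control MSCs and 579 and 514 in L-MSCs (log2 fold change -0.52, adjusted p = 0.275).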
